A study of Mus musculus with 6 samples.

Results

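Presomitic mesoderm is the unsegmented tissue on either side of the neural tube at the tail end of the vertebrate embryo. The readings described here come from the 3 arrays hybridised with RNA of wild-type presomitic mesoderm, out of 6 arrays in the series. The labels call these embryos littermate wild types of a cross between heterozygous Nrarp mutants, dissected at embryonic day 10.5. The other 3 arrays hold presomitic mesoderm of the same stage from embryos whose Nrarp coding region was exchanged for LacZ. They served here to repeat a measurement in samples that had not been used for it, and some of their readings are printed beside those of wild type. For each genotype 12 presomitic mesoderms were collected. The sources used here do not say how these were divided among the arrays, nor give the strain and sex of the embryos, and the spread between the 3 arrays may be technical. No contrast between genotypes was computed.

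In the posterior presomitic mesoderm, cells held immature by Wnt and FGF signals express T-box and other mesodermal regulators. Retinoic acid made in the somites opposes these signals, and where they weaken, cells form the next somite. A segmentation clock of Notch, FGF and Wnt targets oscillates in the tissue, with transcriptional repressors such as Hes7 at its core, and Mesp2 marks the segment about to bud. Nrarp, the gene deleted in the sister group, is a target of Notch that feeds back on the pathway.

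The array held 33012 probes, of which 14411 were assigned to 1 gene, 247 to several genes and 18354 to no gene in the annotation used. For each of the 13840 genes covered, the brightest probe by mean log2 value was taken, and each gene was ranked within each array. A percentile of 98.6 means that 98.6% of the other named genes gave a lower reading. Such a rank compares probes of different sequence, and 2 probes of 1 gene differed by a median of 3.56-fold over the 540 genes that had more than 1, so a rank orders signals and not transcript numbers. Among the extreme cases was Mtrr, a methionine synthase reductase gene, with 1 probe at 2388, 4604 and 4908 and the other at 6.56, 3.15 and 2.87 on wild-type arrays 1, 2 and 3.

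A gene was called bright when it lay at or above percentile 90 on all 3 wild-type arrays. The lower limit was set by 969 reference genes of tissues that the dissection does not contain, such as olfactory and vomeronasal receptors, keratin-associated proteins, defensins and lens crystallins. A gene was called at the floor when, on all 3 arrays, it did not exceed the 90th percentile of those genes, which corresponded to intensities of 1.42, 1.74 and 1.88 on replicates 1, 2 and 3. The bright limit corresponded to 72.2, 56.5 and 60.7. Genes between both limits on all 3 arrays were called moderate, and genes that changed band were called mixed. By these rules 1069 genes (7.72%) were bright, 4535 (32.77%) moderate, 5225 (37.75%) at the floor and 3011 (21.76%) mixed. Of the reference genes 0 were bright, 56 moderate and 824 at the floor. A reading at the floor does not show that a transcript is absent, as the ribosomal protein and enzyme probes below illustrate.

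**Figure D1:**
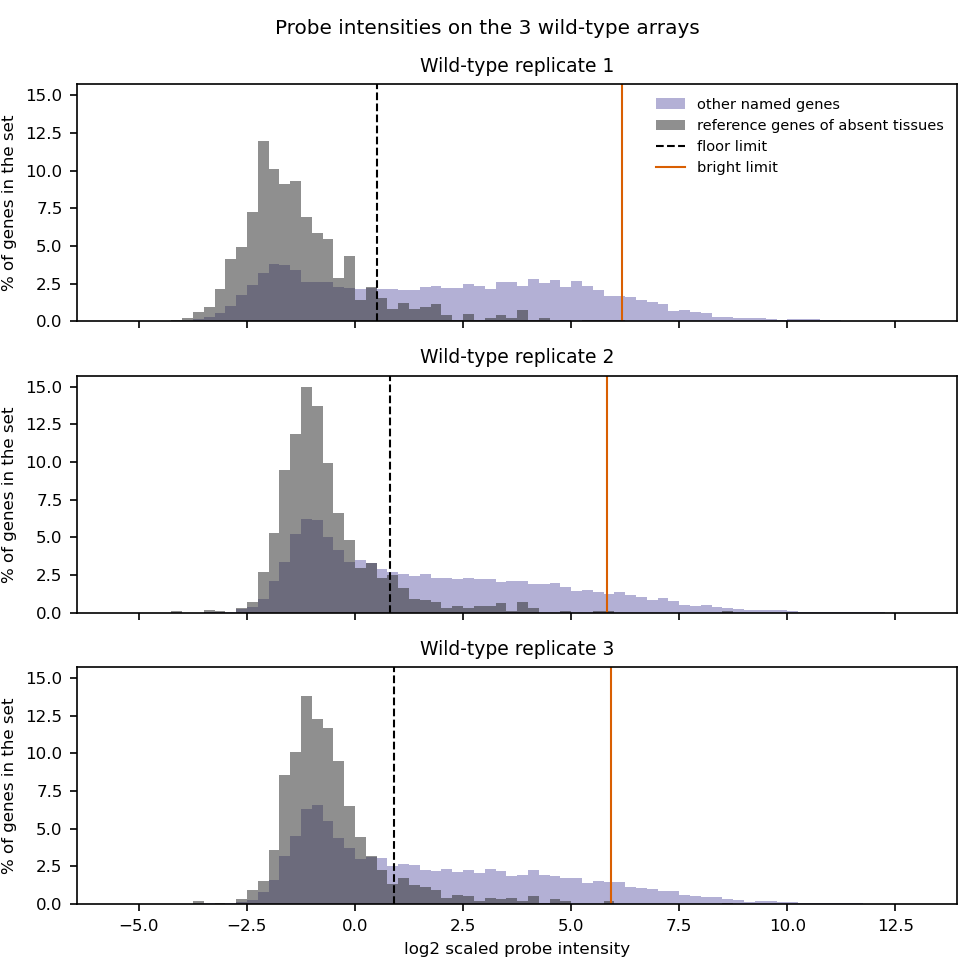
Distribution of log2 scaled probe intensity (horizontal axis) on each wild-type array, as the percentage of genes in the set (vertical axis), for the 969 reference genes and for all other named genes. The dashed line is the floor limit and the solid line the bright limit. The reference genes form a peak below the floor limit on each array, and the peak lies further left on replicate 1 (median intensity 0.344) than on replicates 2 (0.527) and 3 (0.579).

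Wild-type replicate 1 stood apart from the other two. Its intensities correlated over genes with those of replicates 2 and 3 at Spearman's rho of 0.884 and 0.887, against 0.906 between replicates 2 and 3, and most closely with knockout replicate 1, at 0.972. On replicate 1, 40.7% of the genes lay at or below the floor limit, against 50.4% and 50.9% on replicates 2 and 3. Band calls matched for 91.8% of the genes on replicates 2 and 3, for 82.1% and 82.6% on the pairs with replicate 1, and for 78.2% on all 3 arrays. Without replicate 1 there were 1324 bright, 4875 moderate and 6497 floor genes. Of the mixed genes, 1870 owed this to replicate 1 alone, 607 to replicate 2 alone and 534 to replicate 3 alone, and 0 were bright on 1 array and at the floor on another.

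The departure of replicate 1 was probe by probe and recurred in the other genotype. The log2 difference between replicate 1 and the mean of replicates 2 and 3 was taken in wild type and again in the knockout. Both differences correlated at Pearson's r = 0.82 over all named genes. Over the 8615 genes above the floor limit on at least 1 wild-type array, r was 0.89. That set admits genes that passed the limit on replicate 1 only. Genes share their arrays and are not independent, so both values are a description. At least 8-fold higher on wild-type replicate 1 than on both other wild-type arrays were 196 genes, of which 152 were also at least 8-fold higher on knockout replicate 1. At least 8-fold lower were 5 genes, of which 0 were so in the knockout. Actb, which encodes cytoplasmic beta-actin, read 1727, 179 and 185 on the wild-type arrays, against 1809, 112 and 196 on those of the knockout.

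Probes of the same gene did not share this departure to the same extent. In 186 genes with at least 2 probes above the floor limit on all 3 wild-type arrays, the log2 difference of replicate 1 correlated at r = 0.96 between genotypes for the brightest probe and at 0.94 for the second. Between the 2 probes of 1 gene it correlated at r = 0.30, and in 70 of the genes the probes departed in opposite directions, in 60 of these with the same signs in the knockout. In 5 genes both probes departed at least 2-fold in opposite directions. One of the 5, the glycogen synthase kinase gene Gsk3b of the Wnt pathway, had 1 probe at 16.4, 37.7 and 32.8 on wild-type replicates 1, 2 and 3 and another at 36.6, 10.7 and 9.82. In the knockout the same probes read 17.8, 29.9 and 35.4, and 45.1, 8.71 and 10.5. What set replicate 1 apart was not tested. Each value below is given for replicates 1, 2 and 3 in that order, so that replicates 2 and 3 can be read alone. Sets of 3 values in brackets are percentiles, and other sets are scaled intensities unless percentiles are named.

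The 7 sequences shown here are the 150 bases before the annotated start of bright and floor genes, chosen because bright and floor genes differed in the CpG content of their promoters, as described further on. They come from RefSeq (GRCm38.p6), are written 5′ to 3′ on the strand of the gene, and have each CpG in capitals. Nrarp, Dll3 and Tbx6 are presomitic genes, Hba-x is the embryonic zeta globin and Rpl26 a ribosomal protein gene, and all 5 were bright. Sox1, a regulator of neural progenitors, and Tbx4, a regulator of the hindlimb, were at the floor.
Nrarp, chr2:25180608-25180757, plus strand: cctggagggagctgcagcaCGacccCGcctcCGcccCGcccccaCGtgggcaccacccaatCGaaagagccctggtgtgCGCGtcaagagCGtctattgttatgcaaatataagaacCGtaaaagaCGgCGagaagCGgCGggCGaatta
Dll3, chr7:28301786-28301935, minus strand: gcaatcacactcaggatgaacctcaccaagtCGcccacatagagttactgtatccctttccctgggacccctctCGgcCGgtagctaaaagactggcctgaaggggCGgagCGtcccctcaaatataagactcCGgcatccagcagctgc
Tbx6, chr7:126781333-126781482, plus strand: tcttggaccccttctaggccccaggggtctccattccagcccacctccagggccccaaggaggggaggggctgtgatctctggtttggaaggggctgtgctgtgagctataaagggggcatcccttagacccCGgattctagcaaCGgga
Hba-x, chr11:32276450-32276599, plus strand: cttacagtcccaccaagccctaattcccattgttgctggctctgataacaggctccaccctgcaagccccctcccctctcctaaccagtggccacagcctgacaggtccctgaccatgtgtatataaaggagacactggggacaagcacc
Rpl26, chr11:68901416-68901565, plus strand: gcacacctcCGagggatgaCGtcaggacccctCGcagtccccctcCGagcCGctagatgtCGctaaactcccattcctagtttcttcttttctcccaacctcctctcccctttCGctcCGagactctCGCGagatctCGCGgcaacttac
Sox1, chr8:12395369-12395518, plus strand: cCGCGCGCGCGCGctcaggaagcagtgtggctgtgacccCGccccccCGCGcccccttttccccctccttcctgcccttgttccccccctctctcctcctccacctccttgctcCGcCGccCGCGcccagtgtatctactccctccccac
Tbx4, chr11:85896615-85896764, plus strand: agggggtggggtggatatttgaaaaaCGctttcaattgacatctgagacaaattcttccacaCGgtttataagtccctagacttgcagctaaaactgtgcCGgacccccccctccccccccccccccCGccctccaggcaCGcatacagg

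The 6 genes used to label the tissue, chosen with earlier results of these data known, were bright or close to it. Other presomitic genes, such as Msgn1, Hes7 and Cdx1, read lower on each array, as described below. Tbx6, the T-box factor that directs cells to paraxial mesoderm, read 416, 745 and 657 (606 ± 170, SD, n = 3) and lay at percentiles 98.6, 99.3 and 99.0. Dll3, a divergent Notch ligand of the presomitic mesoderm, read 494, 605 and 578 (559 ± 57.9) at percentiles 98.8, 99.0 and 98.9. Nrarp read 318, 429 and 448 (398 ± 70.2) at percentiles 98.1, 98.6 and 98.6, and on the arrays of its knockout the same probe lay at percentiles 68.1, 88.2 and 81.8. What gave the probe its signal in the knockout was not tested. These 3 genes kept their place on every wild-type array, with ranges of less than 1 percentile.

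The other markers lay around the bright limit. Fgf17, a ligand of the FGF family, read 111, 82.4 and 76.3 and was bright on each array, at percentiles 93.6, 92.5 and 91.8. Wnt3a, the Wnt ligand of the tailbud, read 83.9, 46.8 and 53.6 and was above the limit on replicate 1 only, at percentiles 91.4, 88.6 and 89.0. Mesp2, the factor of the segment about to bud, read 64.8, 81.5 and 43.0 and was above the limit on replicate 2 only, at percentiles 89.1, 92.4 and 87.2. Mesp2 and Wnt3a therefore count as mixed, although each of their readings was far above the floor limit of its array. In such bulk samples a gene transcribed in few cells and a gene with little RNA in each cell cannot be told apart.

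Of 27 measured genes of the posterior presomitic mesoderm and tailbud, 7 were bright, 8 moderate, 9 mixed and 3 at the floor, and the medians of their percentiles were 89.4, 87.6 and 85.8 on the 3 arrays, where the median over all named genes is 50. Next to Tbx6 came Ptk7, a receptor-like regulator of planar cell polarity, at 578, 291 and 347, and Rspo3, a secreted amplifier of Wnt signalling, at 150, 207 and 141. Cyp26a1, the enzyme that clears retinoic acid from the tailbud, read 75.9, 66.1 and 67.0 and lay just inside the bright limit at percentiles 90.5, 91.2 and 90.8. Greb1 (96.0, 94.9 and 94.1) and Mllt3 (93.1, 94.0 and 93.5) completed the bright genes with Fgf17. Without replicate 1 there were 10 bright genes on this list.

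The caudal-type factors, which set posterior identity, spread over the whole scale. Cdx4 lay at percentiles 88.3, 91.4 and 90.2 and Cdx2 at percentiles 91.9, 87.1 and 85.8, both mixed around the bright limit. Cdx1 was at the floor, with readings of 1.21, 0.224 and 0.372. Also at the floor were Eomes, a T-box factor of the earlier primitive streak, at 0.295, 0.723 and 0.574, and the orphan nuclear receptor gene Nr6a1 at 0.215, 0.401 and 0.545.

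Fgf8, the FGF ligand graded along the presomitic mesoderm, gave moderate readings of 26.1, 8.63 and 7.77. Msgn1, a factor that drives maturation of paraxial mesoderm, read 50.2, 3.59 and 2.80, which is 15.8-fold more on replicate 1 than the geometric mean of the others. Wnt5a, a ligand of noncanonical Wnt signalling, read 67.3, 7.75 and 7.26. In the knockout, Msgn1 read 50.1, 3.18 and 4.30 and Wnt5a 64.8, 5.98 and 9.46, so that both probes showed the same split by replicate number. Sp8, a zinc finger factor, had the opposite pattern in wild type, at 51.5, 135 and 113. T, Fgf4, Gdf11, Lin28b and Hes3 had no probe of their own in the annotation used and were not analysed here.

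**Figure D2:**
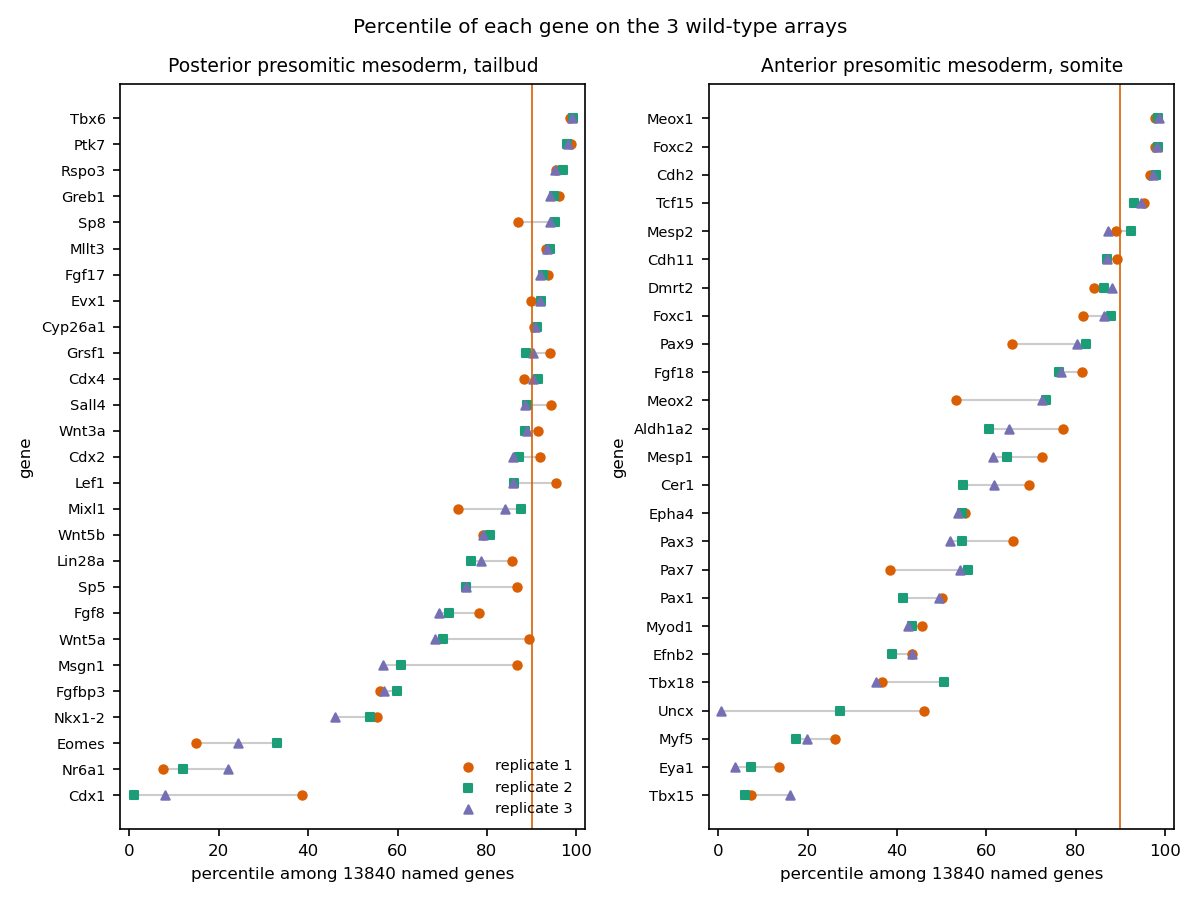
Percentile among 13840 named genes (horizontal axis) of each measured gene (vertical axis) of the posterior and anterior presomitic lists on wild-type replicates 1 (circles), 2 (squares) and 3 (triangles), ordered by the median, with a grey line from the lowest to the highest reading. The vertical line marks percentile 90. Tbx6 and Meox1 lie at the top with symbols that overlap, Msgn1 and Wnt5a have replicate 1 far to the right of the other arrays, and Eya1 and Tbx15 lie at the bottom.

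Among 25 genes measured for the anterior presomitic mesoderm and the somite, 4 were bright, 11 moderate, 7 mixed and 3 at the floor, with medians of 65.9, 60.6 and 61.8. The bright genes were Meox1, a homeobox factor of somites, at 284, 407 and 439, Foxc2, a forkhead factor needed for segmentation, at 285, 349 and 356, Cdh2, the N-cadherin gene, at 192, 305 and 240, and Tcf15, the factor behind the epithelial form of somites, at 144, 90 and 126. A second Cdh2 probe read 42.5, 4.89 and 3.54. Meox1 and Foxc2 thus stood near Tbx6 and Dll3 on every array.

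Genes of somite derivatives gave lower readings. Pax3, a marker of the dorsal somite, read 11, 2.30 and 2.00 and was moderate. Myf5, the first factor of the muscle lineage, was at the floor with 0.503, 0.464 and 0.515. Eya1, at 0.279, 0.346 and 0.308, and Tbx15, at 0.212, 0.332 and 0.471, were at the floor too. Mesp1, the neighbour and relative of Mesp2, read 17.5, 4.96 and 4.09, and Aldh1a2, the enzyme that makes retinoic acid in somites, read 24.3, 3.57 and 5.48. Both were moderate on each array. Uncx, a marker of the rear part of each somite, read 2.18, 0.596 and 0.206 and left the floor on replicate 1 only.

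Of 20 measured genes reported to oscillate with the segmentation clock, 2 were bright, 10 moderate, 8 mixed and 0 at the floor, and their medians were 84.2, 74.7 and 73.6. The share at the floor was 0.0%, against 37.75% of all named genes, but a floor call needs all 3 arrays. Axin2 lay below the floor limit on replicates 2 and 3 and Hes7 on replicate 2, and both count as mixed. Bright on all 3 arrays were Nrarp and Dusp6, a phosphatase that damps the FGF response, at 159, 65.5 and 79.4. Without replicate 1, 4 genes of the list were bright. Spry2, an inhibitor of FGF signalling, was above the limit on replicates 2 and 3 only, with 46.9, 146 and 118. So was the Wnt antagonist gene Dkk1, which lay close to the limit on each array at percentiles 89.5, 91.1 and 90.1.

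The hairy and enhancer of split repressors of the clock occupied different levels. Hes1 read 147, 49.0 and 69.4, at percentiles 95.4, 89.0 and 91.0. Hey1 was moderate and steady (87.8, 86.8 and 86.9), and Hes5 was moderate (65.9, 70.9 and 71.7). Hes7, the repressor at the core of the mouse clock, read 54.2 on replicate 1 but 1.36 and 2.09 on replicates 2 and 3, at or barely above the floor limits. In the knockout the Hes7 probe read 64.1, 1.63 and 1.19, the last 2 below the floor limits of their arrays. Axin2, a feedback inhibitor of Wnt signalling, read 5.89, 0.561 and 0.555 and was above the floor on replicate 1 only. Lfng was not analysed here.

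Measured genes of the Notch pathway numbered 30. They had medians of 60.6, 54.7 and 55.1, close to the middle of the array, with 4 bright, 10 moderate, 10 mixed and 6 at the floor. Among the ligands, Dll1 read 100, 26.7 and 28.7 and was bright on replicate 1 only, so that it ranked below Dll3 on every array. Jag2 was moderate (57.5, 58.8 and 64.0), and Dll4 and Jag1 changed between floor and moderate. Among the receptors only Notch3 was bright, at 89.0, 132 and 114. Notch1, at 0.481, 0.476 and 0.411, Notch2, at 0.528, 0.332 and 0.229, and Notch4 were at the floor. Notch1 is a receptor known to act in this tissue, and its floor reading comes from 1 probe.

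The protease that releases the intracellular part of Notch was represented by bright Aph1a, at percentiles 94.8, 94.8 and 94.6, and bright Psenen, at 152, 81.4 and 97.5, both subunits of gamma-secretase. A second Aph1a probe read 4.22, 1.64 and 0.474, below the floor limit on replicates 2 and 3. Its subunit Ncstn was moderate (69.4, 58.4 and 57.6). Rbpj, the DNA-binding partner of Notch in the nucleus, was moderate at 30.4, 26.4 and 27.6, and the coactivator gene Maml1 was at the floor. Mfng, a fringe glycosyltransferase gene, was moderate at 36.6, 27.1 and 29.9.

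In the FGF pathway 4 of 26 measured genes were bright, 12 moderate, 7 mixed and 3 at the floor, with medians of 76.4, 67.6 and 69.2. Map2k2, a kinase of the ERK cascade, read 173, 169 and 154, and Frs3, an adaptor of FGF receptors, was bright together with Fgf17 and Dusp6. Among the ligands, Fgf18 was moderate at 33.4, 13.2 and 15.1, and Fgf5 and Fgf10 were at the floor, Fgf10 with 0.18, 0.25 and 0.373. Fgfr1, the main receptor of the presomitic mesoderm, read 45.9, 4.85 and 3.56 and was moderate, Fgfr2 and Fgfr3 were mixed, and Fgfr4 was at the floor. Spry1 (88.4, 94.3 and 93.5) and Spry2 were above the limit on replicates 2 and 3, and without replicate 1 the list held 6 bright genes.

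Of 42 Wnt pathway genes 5 (11.9%) were bright, 13 moderate, 18 mixed and 6 at the floor. Of all named genes 7.72% were bright, and the medians of the list were 57.0, 56.1 and 60.0. Bright beside Rspo3 were the receptor genes Fzd7, at 73.7, 174 and 169, and Fzd1, at 72.4, 114 and 113, the secreted Wnt binder Sfrp2, at 109, 187 and 188, and the scaffold gene Axin1, at 79.7, 56.5 and 66.2. Ligands other than Wnt3a that came near the limit were Wnt6 (91.4, 88.5 and 89.0) and, among the moderate ones, Wnt5b (79.2, 80.6 and 79.2). Wnt1 and Wnt10a were at the floor, as was Sfrp5, at 0.118, 0.291 and 0.283. Lef1, a nuclear effector of Wnt signalling, read 149, 33.9 and 35.7, and Ctnnb1, which encodes beta-catenin, was moderate at 50, 22.5 and 19.4.

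Of 15 measured genes of retinoic acid signalling, 5 were moderate, 4 mixed and 3 at the floor. The medians of the list were 68.0, 63.1 and 65.1, and 3 genes were bright. These were Crabp2, an intracellular carrier, at 231, 226 and 262, Stra6, a membrane receptor for the retinol carrier, at 125, 299 and 218, and Cyp26a1. The synthesising enzyme Aldh1a2 was moderate, and its relatives Aldh1a1 and Aldh1a3 were at the floor, Aldh1a3 with 0.469, 0.374 and 0.297.

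For BMP and TGF-beta signalling 3 of 30 measured genes were bright, all at the cell surface. Tgfbr1, a type I receptor, read 114, 232 and 205, Acvr2b, an activin receptor, 91.9, 106 and 89.3, and Bambi, a pseudoreceptor, 140, 160 and 171. Of the ligands, Bmp4 was moderate at 12.1, 6.62 and 7.11, and Bmp5, Bmp6, Inhba and Nodal were at the floor. The list's medians, 56.6, 48.2 and 45.2, were close to those of all genes. Eph receptors and ephrins had 0 bright genes of 20 and 13 mixed ones, where 7.72% of all named genes were bright and 21.76% mixed. Ephb4 and Efnb1 came nearest to the limit, and the list had 1 bright gene without replicate 1 and 1 without replicate 3.

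Hox genes, which encode position along the body axis, had 6 bright, 14 moderate, 7 mixed and 3 floor genes of 30, with medians of 74.9, 70.1 and 68.3. The bright ones were Hoxa10, at 175, 317 and 310, Hoxa7, at 78.5, 344 and 295, Hoxc9, at 107, 219 and 223, and Hoxb2, Hoxb4 and Hoxa5. Hoxa13, of the group that acts last at the tail tip, was moderate at 13.6, 3.39 and 4.08. At the floor were Hoxa6, Hoxb8 and Hoxc5. Paralogues of group 5 thus ranged from bright Hoxa5 to Hoxc5 with 0.989, 0.257 and 0.253, each from its own probe.

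Across 338 developmental transcription factors of named families, 21 (6.2%) were bright and 114 (33.7%) at the floor. These shares were close to the 7.72% and 37.75% of all named genes, and the medians were 51.5, 51.8 and 51.7. Without replicate 1, 30 of the 338 were bright. Tbx6 ranked first by its lowest percentile, followed by Tcf4, a partner of tissue-specific bHLH factors, at 409, 603 and 500, Foxc2, Meox1 and Hmga2, a chromatin protein of growing embryonic tissue, at 288, 276 and 355. Ets2, Hoxa10, E2f6, E2f4, Lmo2, Meis2 and Mycn came next. Of 15 T-box genes only Tbx6 was bright, and 10 were at the floor, among them Tbx4, Tbx5, Tbx15 and Tbx20. Forkhead factors had 1 bright gene, Foxc2, and 18 at the floor of 38. Without replicate 1, 3 forkhead genes were bright, as Foxd1 and Foxn3 lay above the limit on replicates 2 and 3. Sox factors had 0 bright genes of 16, and Sox11 was the highest by its lowest percentile (85.2, 84.3 and 86.3).

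Of 116 signalling ligands 6 (5.2%) were bright and 48 (41.4%) at the floor, against 7.72% and 37.75% of all named genes. Mdk, the heparin-binding growth factor midkine, ranked first at 1329, 878 and 1013, ahead of Dll3, and Pdgfa, Rspo3, Cxcl12 and Fgf17 followed. Without replicate 1, 9 ligands were bright. Of 73 receptors 6 (8.2%) were bright and 22 (30.1%) at the floor, against the same 7.72% and 37.75%. Igf1r, the receptor of insulin-like growth factors, ranked first with 286, 293 and 281, and its reading differed by less than 1 percentile over the arrays.

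The top of the scale was held by the machinery of protein synthesis. Among the 25 genes with the highest lowest-array percentile, 14 encoded cytoplasmic ribosomal proteins. Rpl26 was first at 2617, 4206 and 4306, and the elongation factor gene Eef1a1 read 2937, 4176 and 4416. The others included Ube2c, a ubiquitin carrier of mitotic exit, at 3110, 5317 and 3705, the histone variants H3f3a and H2az1, the nucleosome-binding Hmgn1, the prolyl isomerase Ppia, Ywhae, Actg1, Btf3 and the embryonic globin Hbb-bh1. The readings of the 25 genes lay between 1547 and 5317. Mtrr was also among the 25, by the brighter of its 2 probes.

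Classes of housekeeping genes differed in how many members were bright. Cytoplasmic ribosomal protein genes were bright in 57 of 61 cases, with medians of 99.6, 99.3 and 99.4. The 4 exceptions were Rpl37, mixed at 1.6, 2.48 and 1.32, and Rpl3l, Rpl39l and Rpsa at the floor. Rpl3l and Rpl39l are tissue-restricted variants, but Rpsa encodes a standard subunit of the small ribosomal particle and read 0.203, 0.516 and 0.670. Splicing and RNA-binding proteins were bright in 25 of 39 cases, proteasome subunits in 17 of 28, and the respiratory chain with ATP synthase in 34 of 66. Psmb11, the proteasome subunit of the thymus, was the 1 proteasome gene at the floor, and Cox7b2 and Cox8b were the 2 respiratory ones. Translation factors were bright in 22 of 50 cases and mitochondrial ribosomal proteins in 27 of 65, with Mrpl21 at the floor at 0.139, 0.284 and 0.240.

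Genes of the cytoskeleton were bright in 13 of 17 cases, led by Actg1, at 1713, 2619 and 2645, and by the thymosin Tmsb10 and the tubulins Tuba1a and Tubb5. Chaperones had 17 bright and 14 floor genes of 55. Of these, the ring-forming Cct3, Cct6a, Cct2, Cct5, Cct4 and Cct8 all lay above percentile 97, Cct7 was bright and Tcp1 mixed, and Cct6b was at the floor at percentiles 1.8, 25.4 and 6.8. Transfer RNA synthetases were bright in 3 of 15 cases (Iars, Rars and Gars), with 0 at the floor. Of 13 genes in common use as references, 8 were bright, and Tbp (76.2, 79.1 and 80.1) and Gusb (72.5, 66.7 and 68.4) were moderate.

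**Figure D3:**
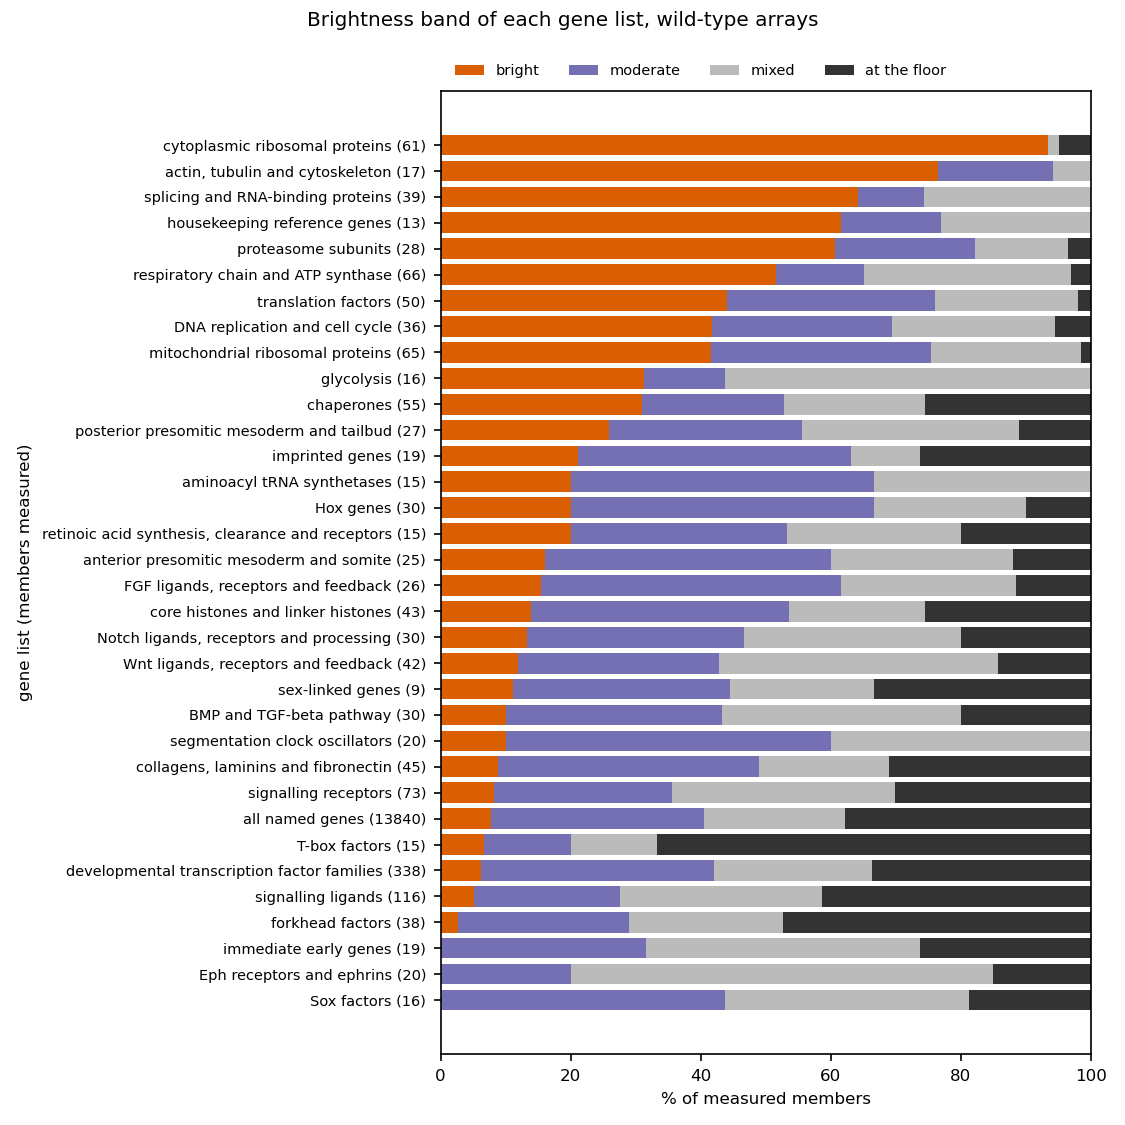
Share of the measured members of each gene list (vertical axis, number measured in brackets) that were bright, moderate, mixed or at the floor on the 3 wild-type arrays (horizontal axis, percent), ordered by the bright share. Cytoplasmic ribosomal proteins have the highest bright share (93.4%), all named genes lie at 7.72%, and immediate early genes, Eph receptors with ephrins, and Sox factors have 0.0%.

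Glycolysis had 5 bright, 2 moderate and 9 mixed genes of 16. Ldha, the lactate dehydrogenase subunit, read 946, 1207 and 1218, and Gapdh 2067, 880 and 1017. Pgam1, Pgk1 and Hk2 were bright as well. Aldoa read 159, 11.6 and 10.4 and Tpi1, an enzyme every glycolytic cell uses, 2.01, 0.526 and 0.524. In the knockout the Aldoa probe read 175, 6.93 and 7.25.

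Genes of DNA replication and the cell cycle were bright in 15 of 36 cases, with medians of 91.8, 86.5 and 87.1. Pcna, the sliding clamp of DNA polymerase, read 720, 1009 and 1140, and Bub1, Mcm4, Mad2l1, Mcm5, Cdc20, Aurkb and Plk1 were bright. The inhibitors differed, with Cdkn1c bright at 152, 422 and 312 and Cdkn1b at the floor at 0.327, 0.362 and 0.472. Cdk1, the mitotic kinase, read 2.29, 0.724 and 0.389 and was above the floor on replicate 1 only. Histones had 6 bright and 11 floor genes of 43, and the bright ones were the replacement variants H3f3a, H3f3b, H2az1 and H2ax and the H2A genes H2ac22 and H2ac10.

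Of 19 imprinted genes 4 were bright. Gnas read 1185, 1012 and 827, Mest 534, 210 and 207, and Nnat 239, 109 and 113, and the fourth was Cdkn1c. Of 45 collagen, laminin and other matrix genes 4 (8.9%) were bright, close to the 7.72% of all named genes. They were Nid2 at 404, 553 and 564, Fn1 at 487, 300 and 336, Sparc at 154, 268 and 238, and Lamb1. Nidogen, fibronectin and laminin are components of the matrix around somites, and 14 matrix genes, such as Col9a1 and Col25a1, were at the floor. Immediate early genes, which rise within minutes of handling or stimulation, had 0 bright genes of 19. Fos (28.9, 42.9 and 33.9), Egr1 and Fosb were at the floor, and Btg2, Ier2 and Jun lay around the bright limit. Leaving out replicate 2 or replicate 3 made 1 of them bright.

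Markers of other cells were present to different degrees. Red cell genes stood out, with 5 of 12 bright and 1 at the floor. Hbb-bh1 read 2329, 2238 and 3108, Hba-x 1419, 3438 and 3364, Hbb-y 1915, 930 and 1130, and Hba-a1 1751, 695 and 820, all in the top percentile. Alas2, the first enzyme of heme synthesis in red cells, was bright at 83.4, 58.1 and 73.0, and the erythroid factor Klf1 was moderate. Slc4a1, the anion exchanger of mature red cells, was at the floor. Hbb-bh1, Hba-x and Hbb-y are globins of primitive, yolk sac derived red cells.

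For surface ectoderm 1 of 12 markers (8.3%) was bright, Krt8 at 96.6, 89.0 and 71.8, and 3 were at the floor. Of all named genes 7.72% were bright. Esrp1 (87.6, 92.8 and 92.2), Epcam (92.6, 86.7 and 87.7) and Cdh1 (87.2, 89.5 and 89.3) were near the limit, and without replicate 1 there were 2 bright genes. The medians of the percentiles on the surface ectoderm list were 73.6, 76.7 and 76.8, where the median over all named genes is 50. On each array they also lay above those of the anterior presomitic and somite list, at 65.9, 60.6 and 61.8. Trp63, the factor that defines stratified epithelium, was at the floor at 0.492, 0.470 and 0.453. The neural tube had medians of 41.5, 52.4 and 57.2 and 1 bright gene of 13 (7.7%), Tubb3 at 190, 64.6 and 96.4. Its progenitor factor Sox2 was moderate at 28.0, 10.6 and 13.6, and Sox1, Pax6, Olig1, Neurog2 and Nkx6-1 were at the floor.

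Endothelial markers had 0 bright, 9 moderate and 4 floor genes of 18. Kdr, the main VEGF receptor, was above the limit on replicates 2 and 3 only, at 50.5, 96.1 and 74.4, so that 1 gene was bright without replicate 1, and Cdh5 and Erg were at the floor. Muscle markers had 0 bright and 7 floor genes of 19, with Actc1 above the limit on replicates 2 and 3. Gut endoderm, lateral plate with limb bud, and intermediate mesoderm had 0 bright genes, and 7 of 13, 7 of 14 and 8 of 12 of their markers were at the floor. The shares over all named genes were 7.72% bright and 37.75% at the floor, and absence of these tissues was not tested. In the limb bud list Msx2 was the highest (81.0, 87.7 and 86.4), and Tbx4, Tbx5, Fgf10, Gata4 and Lhx2 were at the floor. Notochord markers had 5 moderate, 2 mixed and 1 floor gene of 8, macrophage markers 4, 1 and 1 of 6, neural crest markers 2, 2 and 1 of 5, and germ cell markers 3, 2 and 5 of 10. How far neighbouring tissue contributed to any reading was not tested.

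**Figure D4:**
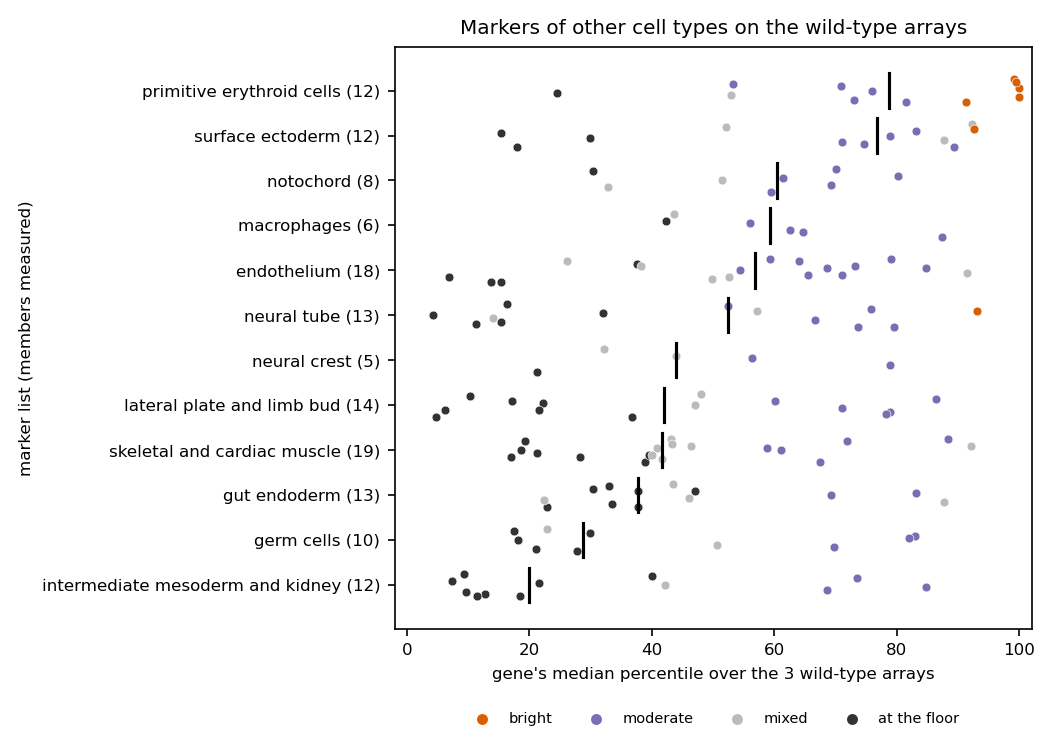
Median percentile over the 3 wild-type arrays (horizontal axis) of each measured marker (points) of 12 other cell types (vertical axis), coloured by band, with the median of each list as a vertical bar. Points are shifted up and down only for legibility. Erythroid markers include 4 genes near percentile 100, and 8 of 12 markers of intermediate mesoderm and kidney are at the floor.

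Bright and floor genes differed in the sequence at their starts. RefSeq promoters of 300 bases, from 250 before the start to 50 after it, were matched to 11163 of the 13840 genes (80.7%). The CpG ratio, the number of CpG observed over that expected from the C and G content, had a median of 0.85 in 868 bright genes, 0.77 in 3727 moderate, 0.71 in 2439 mixed and 0.31 in 4129 floor genes. Without the reference genes the floor median was 0.38. A ratio below 0.35 was found in 3.8% of bright, 11.6% of moderate, 20.1% of mixed and 55.0% of floor genes. The share was 28.9% over all 11163 matched genes and 46.7% over all 27025 genes of the promoter table. Genes are not replicates, and these values were not tested.

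**Figure D5:**
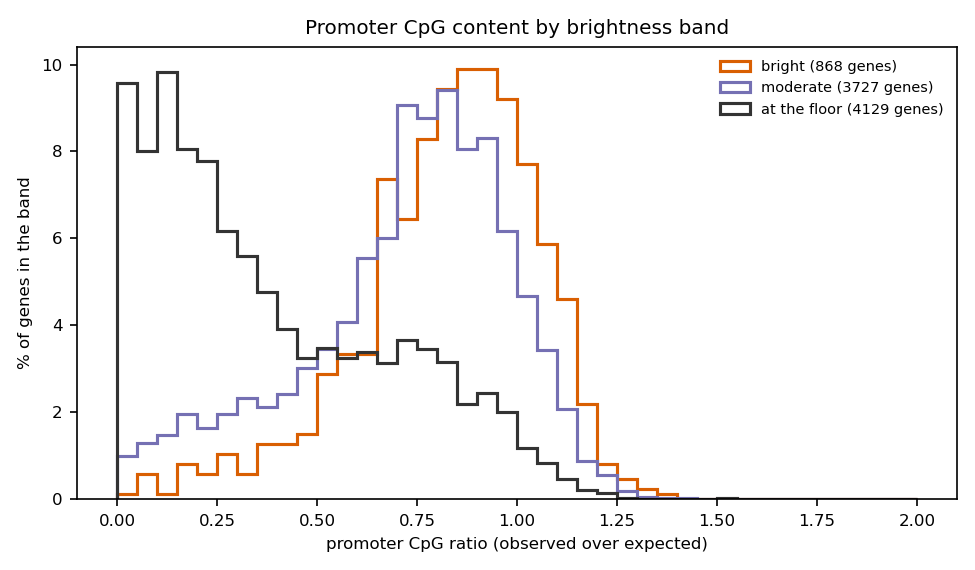
Promoter CpG ratio (horizontal axis, observed over expected CpG) as the percentage of genes in each band (vertical axis) for bright, moderate and floor genes. Bright and moderate genes peak between 0.7 and 1.0, and floor genes have most of their weight below 0.35.

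The printed sequences show both the rule and its exceptions. Rpl26 and Nrarp had 21 CpG each in the 300 bases and ratios of 0.87 and 0.78, Dll3 had 11 and a ratio of 0.57, and Tbx6 had 7 and a ratio of 0.29. Hba-x had 2 and a ratio of 0.09. Sox1 was at the floor with 37 CpG and a ratio of 1.07, whereas Tbx4 had 8 and a ratio of 0.31. In all, 33 bright genes had a ratio below 0.35. Among them were Hba-x, Hbb-y, Hba-a1 and Alas2 of the red cell list, Krt8, the matrix gene Sparc, the retinol receptor Stra6, the imprinted Mest and, of the presomitic markers, Tbx6. The erythroid list as a whole had a median ratio of 0.19 over 9 promoters, and the splicing and cell cycle lists had 0.94.

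Core promoter motifs were rarer. The letters TATAAA were searched in the 50 bases before the start on the strand of the gene. They occurred in 2.3% of bright, 5.5% of floor and 3.3% of all matched genes, and in 2.9% of all promoters in the table. With both strands these shares were 2.4%, 6.8%, 4.0% and 3.8%. The motif began 43 bases before the start in Tbx6 and 28 before it in Hba-x, and it was present in 31.6% of 38 histone promoters. A terminal oligopyrimidine start, searched as a C followed by at least 4 pyrimidines within 2 bases of the annotated start and only on the gene's strand, was found in 15 of 51 ribosomal protein promoters (29.4%) and in 7.3% of all promoters. The motifs do not overlap in these windows, as one lies before the start and the other at it. A match is a description of the letters and not of a factor's binding.

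For most bright genes, brightness recurred in samples that had not been used to call it. Of the 1069 genes bright in wild type, 1000 (93.5%) were also bright on all 3 knockout arrays, where 1028 genes were bright in total. The corresponding shares were 90.2% of moderate and 88.7% of floor genes. Recurrence of brightness is given by list as counts, and why the counts differed was not tested. Some lists had few bright genes, and some of these lay close to percentile 90, such as Fgf17 (93.6, 92.5 and 91.8). The medians of the ribosomal protein genes were 99.6, 99.3 and 99.4. Recurrence held for 56 of 57 ribosomal protein, 17 of 17 proteasome and 4 of 4 Notch pathway genes. For Hox genes it held in 4 of 6 cases and for FGF pathway genes in 2 of 4. On the clock list it held for 0 of 2, of which Nrarp is the deleted gene. The knockout arrays also shared the departure of replicate 1. The median log2 SD over the 3 wild-type arrays was 0.30 for bright, 0.47 for moderate and 0.60 for floor genes. The range of a bright gene's percentiles is bounded by the band rule, so ranges are not compared between bands. Between replicates 2 and 3 the median absolute log2 difference was 0.16, 0.21 and 0.52 in these bands. Order among floor genes is therefore not readable from these arrays.

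Of 1708 genes above percentile 90 on at least 1 wild-type array, 639 were not bright on all 3. Of the 1708, 29 had a range of more than 15 percentiles, and 25 of these were highest on replicate 1. Arf5, a small GTPase of vesicle transport, had the widest range, at percentiles 91.5, 60.0 and 65.2. H1f10, Gja1, Tomm40, Pcbp1, Eif4b, Tle5, Aldoa, Anapc5 and Ppp1cc followed, and each was highest on replicate 1 in the knockout too.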

How the data were processed

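Per the labels' protocols, digoxigenin-labelled cRNA made from total RNA was read on one-colour arrays of Applied Biosystems. The labels name a human array, whereas organism and probe annotation are mouse. The deposited values are linear intensities that the authors had scaled, with array medians of 0.981 to 0.993 and sums of 1019520 to 1095539 in wild type. The sources used here do not say how they scaled, filtered or corrected for background, which affects dim probes most.

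Intensities were taken to log2 with no further normalization, and genes were ranked and banded as the report states. No test was made, as no groups were compared. Genes named are the 6 labelling markers, the 25 brightest, the extremes of each list, the 20 brightest transcription factors, ligands and receptors, the 10 of widest range, and any member of the presomitic and pathway lists. Sox1, Tbx4 and some list members named beside them were chosen after their values were seen. The members and the 46 lists were chosen with earlier results of these data known. The band calculation was run on artificial input as a check of its steps. The reliability of band calls near the limits was not tested. Alternatives covered both limits, the ranking, the probe choice and each array left out. Tools were Python 3.11.15, pandas 2.3.3, numpy 2.4.6 and matplotlib 3.10.9. The number of arrays limits precision.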

Additional observations from a re-analysis of the deposited data

How the results depend on the processing

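Counts moved chiefly with where a limit was placed. With the bright limit at percentile 80 there were 2247 bright and 2945 moderate genes, and 2125 of the bright ones were bright on the knockout arrays. At percentile 95 there were 507 bright genes, of which 463 were bright on the knockout arrays. With the floor limit at percentile 75 of the reference genes, 3005 genes were at the floor. When a band needed 2 of 3 arrays, 100% of the genes had 1 band. Leaving out 1 array, so that only 2 had to match, gave 82.2% to 91.7%, the highest without replicate 1. The other alternatives for these counts stayed within 1.5 times of the values reported. The median CpG ratio was 0.83 to 0.88 in bright and 0.27 to 0.38 in floor genes under all alternatives run, including the highest ratio over a gene's promoters, which was added after seeing the data. Over 46 lists, 80 of 552 recomputed medians moved, 41 of them with percentiles over all probes, and 80 of 552 counts of bright members moved, 27 of them at percentile 80. No paired analysis was possible because no groups were compared, so that no result comes from a test.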
